A study of Mus musculus with 6 samples.

Results

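The expression of 10 CXC chemokine genes was followed in LPS-stimulated bone marrow-derived macrophages labelled as Cd74 control or knockout: Cxcl1, Cxcl2, Cxcl3, Cxcl5, Cxcl9, Cxcl10, Cxcl11, Cxcl14, Cxcl16 and Pf4. The members were picked by gene symbol from a table of 17217 rows, and 8 of the 10 had a row. Cxcl5 and Cxcl9 had none, so no level is given for them. The data are bulk RNA sequencing of 3 libraries titled Control (genotype label Con) and 3 titled Knockout (genotype label KO), the protocol naming CD74+/+ and CD74-/- cells. All 6 came from femur marrow of 8-week-old mice, matured with M-CSF at 30 ng/mL and exposed to LPS, the bacterial ligand of TLR4, at 100 ng/mL for 24 h. Strain and knockout allele are not given in the sources used here, and the protocol text of every library speaks of WT mice, so genotype was read from titles and genotype labels. There was no group without LPS, so induction by LPS was not measured. The labels put every Control library in batch 1 and every Knockout library in batch 2. Each difference given here could therefore be one of batch or of genotype, and they cannot be told apart. Whether the replicates are separate animals or cultures is not stated, and the p-values measure only the spread between these libraries, which may be technical.

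CXC chemokines are small secreted proteins that direct leukocyte migration through G protein-coupled CXC receptors. Cxcl1, Cxcl2, Cxcl3 and Cxcl5 attract neutrophils through the receptor Cxcr2, and macrophages transcribe such genes rapidly under NF-kB after LPS. Cxcl9, Cxcl10 and Cxcl11 bind Cxcr3 on activated T cells and are induced by interferons, in part through IRF factors. Cxcl16 is made as a membrane-bound ligand of Cxcr6 that proteases release, Cxcl14 is mostly an epithelial and stromal chemokine, and Pf4 (Cxcl4) is best known from platelet granules.

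Cd74 itself, the invariant chain of MHC class II, stood at 632, 593 and 594 TPM in Control and at 65.3, 64.6 and 63.1 TPM in Knockout. TPM is a transcript abundance scaled by gene length and to a fixed total. The direction goes with the genotype labels, although Cd74 RNA was still present in every Knockout library, and the Knockout values of Cd74 are not whole reads at any single gene length, unlike those of the 8 CXC members, which are whole in all 6 libraries. Depth recovered from the TPM values was 36445462 to 59236599 reads per library. Of 18 macrophage markers 12 had a row, Lyz2 and Cd14 being abundant (5373 and 2825 TPM on average in Control), while C1qa, C1qb, C1qc, Mertk, Maf and Marco had none. Of the 11 tested macrophage markers 6 rose in Knockout, among them Cx3cr1 (1.77 on the log2 scale), Csf1r (0.76) and Lyz2 (0.69), and 4 were not called. Adgre1, which encodes F4/80, fell by 0.56. The summed macrophage list stood at 11095 to 11637 TPM in Control and 14522 to 15803 TPM in Knockout. Lyz2 weighs most in that sum, going from 5373 to 8658 TPM on average, while Adgre1 went from 489 to 332 TPM. Cd68 (0.07) and Cd14 (0.10 on the log2 scale) were not called. The part of the macrophage list in the chemokine results was not tested. Of 12 neutrophil markers 3 had a row, and the list summed to 17.6 to 18.1 TPM in Control and 23.8 to 29.3 TPM in Knockout. Other lists were lower. Summed over each, 11 stromal and endothelial markers came to 1.72 to 2.38 TPM per library, 7 dendritic cell markers to 1.11 to 2.41 TPM and 9 lymphocyte markers to 0.163 to 0.651 TPM. A filter kept the 13034 rows whose mean reached 1 TPM. Of these limma called 2406 higher and 1313 lower in Knockout at a Benjamini-Hochberg adjusted p under 0.05, and 1821 higher and 1714 lower after median-of-ratios scaling.

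Of the 10 members, 7 had a promoter window in the RefSeq table (GRCm38.p6), and 5 are printed because the genes' levels differ so widely. Each run covers 220 bases, from position -250 to -31 relative to the RefSeq start site, 5′ to 3′ on the gene's own strand. Capitals mark matches, on either strand, to the kappaB motif bound by NF-kB or to GAAA followed by any 2 bases and a second GAAA, the core of the interferon-stimulated response element (ISRE). The windows lie at chr5:90903649-90903868 for Cxcl2, chr5:90890995-90891214 for Cxcl1 and chr5:90785851-90786070 for Cxcl3, all on the plus strand, and at chr5:92348920-92349139 for Cxcl10 and chr5:92328110-92328329 for Cxcl9, on the minus strand.
Cxcl2: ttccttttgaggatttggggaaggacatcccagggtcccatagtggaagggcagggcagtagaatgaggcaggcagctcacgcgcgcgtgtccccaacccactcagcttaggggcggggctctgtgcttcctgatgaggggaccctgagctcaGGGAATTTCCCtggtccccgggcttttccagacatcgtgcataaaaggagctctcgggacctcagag
Cxcl1: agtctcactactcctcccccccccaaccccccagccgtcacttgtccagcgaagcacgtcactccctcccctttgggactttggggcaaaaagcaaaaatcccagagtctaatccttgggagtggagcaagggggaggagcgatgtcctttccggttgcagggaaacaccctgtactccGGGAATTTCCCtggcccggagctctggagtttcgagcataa
Cxcl3: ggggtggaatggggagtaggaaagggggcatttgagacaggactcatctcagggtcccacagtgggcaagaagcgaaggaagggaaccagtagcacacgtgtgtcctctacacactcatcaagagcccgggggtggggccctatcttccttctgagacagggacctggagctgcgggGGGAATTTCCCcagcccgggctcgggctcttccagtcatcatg
Cxcl10: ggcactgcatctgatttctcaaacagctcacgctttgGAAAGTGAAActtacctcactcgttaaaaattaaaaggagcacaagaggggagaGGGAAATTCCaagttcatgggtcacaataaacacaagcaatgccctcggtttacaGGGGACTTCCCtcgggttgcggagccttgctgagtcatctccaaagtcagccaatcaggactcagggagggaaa
Cxcl9: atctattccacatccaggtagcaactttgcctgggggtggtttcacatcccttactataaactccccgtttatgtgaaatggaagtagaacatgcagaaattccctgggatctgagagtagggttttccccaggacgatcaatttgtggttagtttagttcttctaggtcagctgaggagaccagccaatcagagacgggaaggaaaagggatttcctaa

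Upstream of Cxcl2, Cxcl1 and Cxcl3 the capitals spell the same 11 letters, GGGAATTTCCC, which match the kappaB motif once on each strand with the matches overlapping. The run begins at position -97 in Cxcl2, -71 in Cxcl1 and -73 in Cxcl3. These positions depend on the RefSeq start site. The Cxcl2 window ends at chr5:90903868, just before the gene start given below, chr5:90903871, so its RefSeq start site lies inside that gene. Cxcl10 carries an ISRE match that begins at -213, then GGGAAATTCC at -159 and GGGGACTTCCC at -104, the latter holding a pair of overlapping matches on the plus strand. The Cxcl9 window holds no match to either motif, and the Cxcl14 window, not printed, holds an ISRE match. Of 32851 RefSeq windows of the same length, 6.34% hold a kappaB match and 2.63% an ISRE match. Among the 7 members with a window, the C/EBP motif TTGCNNAA, in 8.78% of all windows, was matched only upstream of Pf4. In the same 7, the AP-1 motif TGANTCA, in 6.12% of all windows, was matched only upstream of Cxcl10. These are letter matches, not measured binding.

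**Figure D1:**
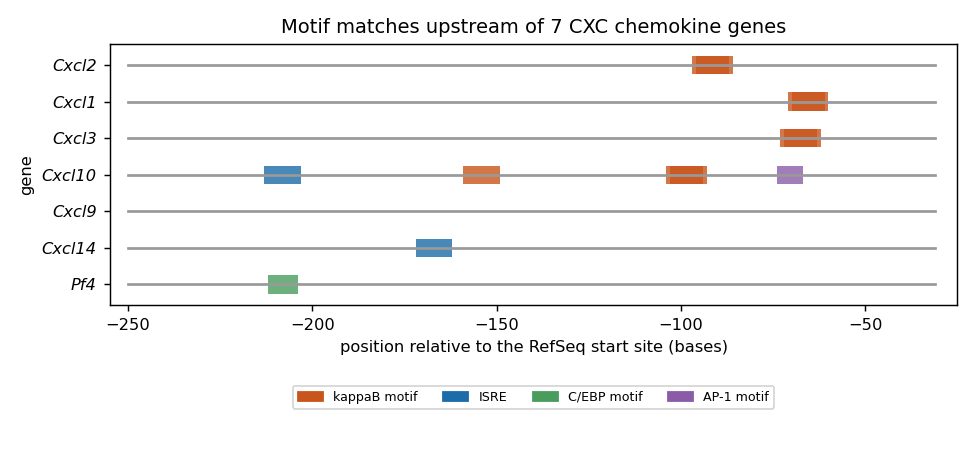
Positions of motif matches on either strand in the 220 bases upstream of the 7 CXC chemokine genes with a RefSeq window, against distance in bases from the start site (darker orange: overlapping kappaB matches). Cxcl2, Cxcl1 and Cxcl3 each show 1 block of overlapping kappaB matches, at -97, -71 and -73, and Cxcl10 shows 2 kappaB blocks with an ISRE and an AP-1 match.

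The neutrophil-attracting genes stood at very unlike levels although they lie close together on chromosome 5. Cxcl2, also known as MIP-2, was by far the most abundant of the CXC chemokines with a row. Its gene spans chr5:90903871-90905938 on the plus strand (GRCm38, as for all gene positions here). Cxcl2 stood at 3848, 3555 and 3801 TPM in the Control libraries, in order of replicate number here and below, and 2266, 2145 and 1705 TPM were measured in Knockout. Every Knockout library lay below every Control library, and Knockout replicate 3 was the lowest. Mean Cxcl2 was 3735 ± 158 TPM in Control and 2039 ± 295 TPM in Knockout (SD, n = 3 each), or 1.83 times higher in Control. On the log2(TPM + 1) scale Cxcl2 fell by 0.88 (SE 0.10, limma adjusted p = 0.00303). These values rest on 59287 to 123006 reads per library, so counting error is small beside the spread between libraries. By mean TPM Cxcl2 ranked 20 among the 17217 rows in Control and 43 in Knockout. In bulk RNA, fewer cells of a type and less RNA per cell cannot be told apart.

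Cxcl1, the mouse chemokine KC and a close relative of Cxcl2, was at the edge of detection. It stood at 0.188, 0 and 0.477 TPM in Control and at 0.417, 0.0680 and 0.254 TPM in Knockout, which is 0 to 14 reads per library. The groups overlapped throughout, and the gene did not reach a mean of 1 TPM and was not tested. The library at 0 allows up to 0.0997 TPM, the value of 3 reads, for counting error only and if reads count independently. All Cxcl1 counts were even, so this bound may be too low. Cxcl1 and Cxcl2 thus carry the same 11-letter kappaB run upstream and differed widely in level, Cxcl1 staying under 0.5 TPM in every library.

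Cxcl3 (chr5:90786103-90789600, plus strand) moved against Cxcl2. It stood at 2.55, 2.17 and 3.14 TPM in Control (101 to 172 reads) and at 12, 11.9 and 6.70 TPM in Knockout (394 to 752 reads). All 3 Knockout libraries lay above all Control libraries, with Knockout replicate 3 the nearest to them. Mean Cxcl3 was 2.62 ± 0.489 TPM in Control and 10.2 ± 3.04 TPM in Knockout (SD, n = 3 each), and it rose by 1.60 on the log2 scale (SE 0.22, adjusted p = 0.00457 by limma). Within each library, log2 of Cxcl3 over Cxcl2 (on TPM + 1) was -10.1, -10.1 and -9.84 in Control and -7.45, -7.37 and -7.79 in Knockout. The mean ratio was higher in Knockout by 2.48, or by 2.77 with a pseudocount of 0.1. This pair was chosen after the opposite directions of the genes were seen, so the ratio is a description. Its exact two-sided permutation p of 0.1, the smallest possible here, therefore carries no weight. The longest coding transcripts of Cxcl2 and Cxcl3 share 71 runs of 40 bases, 3.90% of those of Cxcl2 and 7.27% of those of Cxcl3, and no other of the 45 member pairs shares any. How reads that fit both genes were counted is not given in the sources used here. Reads of Cxcl3 rose while those of the far more abundant Cxcl2 fell, and the part of shared reads in either level was not tested.

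Cxcl5, the neutrophil chemokine LIX, had no row, and neither had Cxcr2 or Cxcr1, the receptors of this group. Rows in the table go down to 2 reads summed over the 6 libraries, and 31 rows had under 10, so genes with almost no reads could be listed. The listed values sum to 998350 to 998572 TPM in Control and 991721 to 993362 TPM in Knockout. These sums fall short of the fixed total to which TPM is scaled, and by more in Knockout. Rows left out may therefore hold RNA. A gene without a row cannot be told from an expressed gene whose row was left out. The rule by which rows were left out is not stated.

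**Figure D2:**
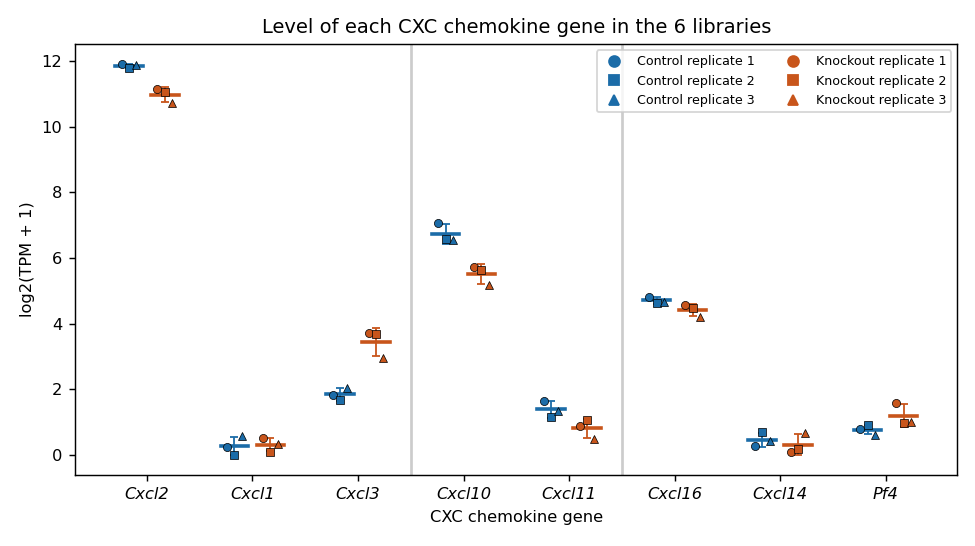
log2(TPM + 1) of the 8 CXC chemokine genes with a row, in 3 Control (blue) and 3 Knockout (orange) libraries, with bars for the group mean and error bars for 1 SD; grey lines part the neutrophil-attracting, the Cxcr3-binding and the other genes. Cxcl2 lies near 12 in Control and 11 in Knockout, Cxcl3 is higher and Cxcl10 lower in all Knockout libraries, and Cxcl1 and Cxcl14 overlap.

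Among the interferon-inducible Cxcr3 ligands with a row, Cxcl10 (IP-10, chr5:92346638-92348889, minus strand) was the main one. It stood at 134, 94.3 and 91.7 TPM in Control and at 51.9, 48.7 and 35.2 TPM in Knockout, with 1334 to 3414 reads per library. The groups did not overlap, Control replicate 1 standing apart at the top and Knockout replicate 3 at the bottom. Mean Cxcl10 was 107 ± 23.6 TPM in Control and 45.3 ± 8.84 TPM in Knockout (SD, n = 3 each), or 2.36 times higher in Control. Cxcl10 fell by 1.22 on the log2 scale (SE 0.18, limma adjusted p = 0.00570). Without those 2 libraries, a choice made after the data were seen, it fell by 0.88 (limma adjusted p = 3.08e-04). Leaving out the extreme library of each group narrows the spread within groups, so this smaller p carries no weight.

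Cxcl11 (I-TAC) was near the filter, with 26 to 92 reads per library. It stood at 2.14, 1.22 and 1.55 TPM in Control and at 0.853, 1.07 and 0.408 TPM in Knockout. The groups did not overlap, but the log2 difference of -0.57 (95% interval -1.08 to -0.07) was not called, with limma adjusted p = 0.0854. On recovered reads limma-voom put the difference at -1.14 and called it (adjusted p = 0.0352). The gene passed the filter of 1 TPM through its Control libraries, the Knockout mean being 0.779 TPM. RefSeq lists mouse Cxcl11 on this assembly as a transcribed pseudogene, so its RNA need not give the chemokine. The GENCODE M21 annotation, used here for lengths and shared sequence, differs and holds a coding transcript of Cxcl11.

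Cxcl9 (MIG), the partner of Cxcl10 and Cxcl11 in T cell recruitment, had no row, although it neighbours Cxcl10 on chromosome 5. The fall of Cxcl10 was next set against that of Cxcl2. Within each library, log2 of Cxcl10 over Cxcl2 (on TPM + 1) was -4.84, -5.22 and -5.36 in Control and -5.42, -5.43 and -5.56 in Knockout. The difference of -0.33 had an exact two-sided permutation p of 0.1, the smallest that 3 against 3 allows, also after adjustment over the 3 ratios computed. Without Control replicate 1 it was -0.18, so its size rests largely on that library. The planned ratio of Cxcl1 over Cxcl2 was higher in Knockout by 0.92, with the same exact permutation p of 0.1. Cxcl1 itself, at 0 to 14 reads per library, differed by 0.04, so that ratio mostly reflects the fall of Cxcl2.

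Of the other members, Cxcl16, the transmembrane ligand of Cxcr6, was expressed at a moderate level with a small difference. It stood at 27.4, 23.9 and 24.2 TPM in Control and at 22.8, 21.3 and 17.4 TPM in Knockout. The groups did not overlap but nearly touched, with a mean of 25.1 ± 1.92 TPM in Control and 20.5 ± 2.80 TPM in Knockout (SD, n = 3 each). The log2 difference of -0.29 (95% interval -0.53 to -0.04) was not called by limma (adjusted p = 0.0795). It was called by limma-voom on recovered reads (-0.34, adjusted p = 0.0352) and without Knockout replicate 1 (-0.37, adjusted p = 0.0487 by limma).

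Pf4, a platelet chemokine, stood at 0.735, 0.864 and 0.532 TPM in Control (6 to 10 reads) and at 2.01, 0.972 and 0.990 TPM in Knockout (11 to 26 reads). The groups did not overlap, but Knockout replicates 2 and 3 lay close to the Control libraries. Its log2 difference of 0.42 (95% interval -0.09 to 0.93) was not called, with limma adjusted p = 0.185, and it passed the filter through Knockout alone. Of 12 platelet and megakaryocyte markers 6 had a row, with a summed level of 2.77 to 4.42 TPM in Control and 2.56 to 3.65 TPM in Knockout, and Ppbp, Gp9, Gp1bb and Tubb1 had none. Cxcl14 stood at 0.193, 0.614 and 0.350 TPM in Control and at 0.0611, 0.140 and 0.586 TPM in Knockout, or 2 to 18 reads, with overlapping groups, and was not tested.

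Of the 10 members, then, 2 fell (Cxcl2 and Cxcl10), 1 rose (Cxcl3), 3 were tested and not called, 2 were too low to test and 2 had no row. Among all tested rows 28.5% were called in either direction, 10.1% lower and 18.5% higher. The groups did not overlap in 50.0% of all tested rows. The 6 tested members had a median log2 fold change of -0.43, against 0.04 over all tested rows. Cxcl2 alone made up 95.8% to 96.9% of the CXC TPM of each library, summed over the members with a row. That sum stood at 3872 ± 174 TPM in Control and 2117 ± 310 TPM in Knockout (SD, n = 3 each), so it follows Cxcl2. Knockout replicate 3 was the lowest of its group in 5 of the 6 tested members. Over all tested rows it was the lowest in 44.1% and the highest in 38.6%. Control replicate 1, the least deeply sequenced library, was the highest of its group in 4 of the 6, and over all tested rows it was the highest in 33.7% and the lowest in 43.6%.

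**Figure D3:**
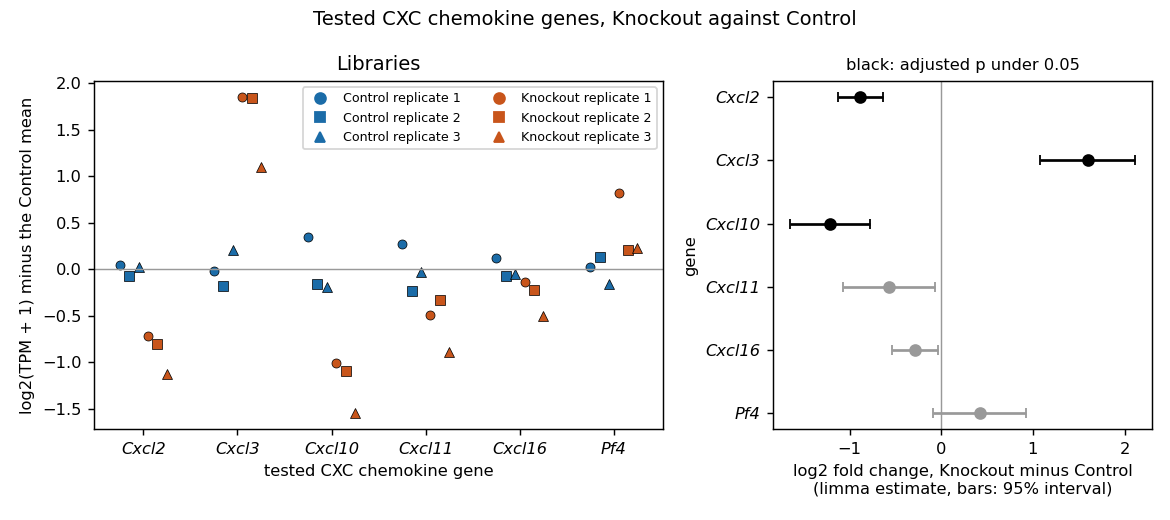
Left, log2(TPM + 1) of each library minus the Control mean for the 6 tested CXC chemokine genes (Control blue, Knockout orange, marker shape by replicate number); right, limma log2 fold changes of Knockout against Control with 95% intervals, black where the adjusted p was under 0.05. Cxcl2 (-0.88) and Cxcl10 (-1.22) lie below 0 and Cxcl3 (1.60) above it, and Knockout replicate 3 is the lowest orange marker in 5 of the 6 genes.

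Levels of different genes depend on the length used. The whole-read check placed each member at the union of its annotated exons, which counts retained introns. That length is 3498 bases for Cxcl3, 3.44 times its coding transcript, 1.97 times for Cxcl1, 1.66 times for Cxcl10 and 1.11 times for Cxcl2. Tabulated TPM of Cxcl3 and Cxcl1 would be higher by up to those factors on the coding transcript alone. Both would still lie far under Cxcl2. Linear TPM ratios between groups within a gene do not depend on its length, but differences on the log2(TPM + 1) scale and passage of the filter do for low genes. With a pseudocount of 0.1 the difference was 1.89 for Cxcl3 and -1.03 for Cxcl11.

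Of 8 receptors of CXC chemokines, 4 had a row and 2 were tested. Cxcr3, the receptor of Cxcl9, Cxcl10 and Cxcl11, stood at 8.52, 7.59 and 5.57 TPM in Control and at 15.7, 17.1 and 17.7 TPM in Knockout. The groups were well apart, and Cxcr3 rose by 1.13 on the log2 scale (SE 0.14, limma adjusted p = 0.00328), opposite in direction to its ligand gene Cxcl10. Cxcr5 was tested and not called (0.34), and Cxcr4 and Cxcr6, the receptors of Cxcl12 and Cxcl16, were under 1.2 TPM in every library. Ackr1 and Ackr3 had no row, and neither had any of 5 further CXC ligands (Cxcl12, Cxcl13, Cxcl15, Cxcl17 and Ppbp).

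The list of 19 NF-kB and C/EBP genes that act on the neutrophil-attracting chemokines held 2 rises, 7 falls and 10 genes not called. Its median log2 fold change was -0.17. This list and those below were chosen with earlier results of these data known. Over all tested rows 18.5% were called higher and 10.1% lower, shares to be set beside each list. Cebpb, a transcription factor of inflammatory genes, fell from 147 ± 17.4 to 46.5 ± 10.4 TPM (SD, n = 3 each), a log2 change of -1.65. Nfkbiz, a nuclear cofactor of NF-kB, fell by 0.80, the feedback inhibitor gene Tnfaip3 by 0.47 and the NF-kB subunit gene Rela by 0.22. Rela lost its call without Control replicate 2 or 3 or Knockout replicate 2. The rises were in Nfkbid (0.60), another nuclear IkB gene, and Myd88 (0.33), the adaptor of TLR4. Nfkbia (-0.43, adjusted p = 0.0511 by limma) and Cebpd (-0.16) were not called. Nfkbia was called under 7 of 16 alternatives, among them both rescalings, limma-voom (-0.48, adjusted p = 0.0204) and the replicate block, and its difference was -0.28 without Knockout replicate 3.

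For the interferon route to Cxcl9, Cxcl10 and Cxcl11, 17 genes are reported. Of 16 tested, 3 fell and 13 were not called, with a median of -0.05. Jak2, a kinase of the interferon-gamma receptor, fell by 0.60 and Ticam1, which encodes the adaptor TRIF, by 0.54 on the log2 scale. Irf1 was not called (-0.03), and Ifnb1, the interferon-beta gene, had no row.

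Interferon-stimulated genes went both ways, with 3 of 15 higher, 7 lower and 5 not called, and a median of -0.56. Among all tested rows 18.5% were called higher and 10.1% lower. Gbp5, a guanylate-binding protein gene, fell from 23.3 ± 5.61 to 6.64 ± 2.67 TPM and Rsad2, the antiviral gene viperin, from 615 ± 99.5 to 246 ± 89.4 TPM (SD, n = 3 each). The GTPase genes Irgm1 and Igtp rose by 0.71 and 0.49 on the log2 scale.

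Chemokine messages are also short-lived, under control of RNA-binding proteins. Of 11 such genes 8 were not called, 2 rose and 1 fell, the median being 0.01. The fall was Zc3h12a (-0.29), which encodes the RNA-cleaving protein Regnase-1, and the rises were Hnrnpd (0.31) and Khsrp (0.22). Zc3h12a and Khsrp sat near the threshold (limma adjusted p = 0.0493 and 0.0455). Khsrp lost its call without any 1 of the 6 libraries, and Zc3h12a without any 1 other than Knockout replicate 1. Khsrp also lost it with both rescalings (0.18 and 0.16), limma-voom, no filter and the replicate block, and Zc3h12a with a pseudocount of 0.1 and with no filter. Zfp36, the gene of tristetraprolin, was not called (-0.34), except under the replicate block (adjusted p = 0.0366 by limma). Its difference was -0.20 without Control replicate 1, -0.17 without Knockout replicate 3 and -0.03 without both.

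Among 13 proteases and regulators that shed Cxcl16 or trim CXC chemokines, 9 were tested, 7 rose and 2 were not called, with a median of 0.33. The share called higher among all tested rows was 18.5%. Mmp12, the macrophage elastase gene, rose from 3.95 ± 0.107 to 16.9 ± 0.501 TPM and the gelatinase gene Mmp9 from 70.9 ± 3.54 to 177 ± 31.8 TPM (SD, n = 3 each). Adam10 and Adam17, the sheddases of Cxcl16, rose by 0.33 and 0.24 on the log2 scale, and Adam17 lost its call without Control replicate 1 or 3. Beside these, S100a8, also a neutrophil gene, rose by 1.73 and Csf3r fell by 0.62, while Ly6g, Mpo, Elane and 6 more of 12 neutrophil markers had no row. The part of the neutrophil list in the chemokine results was not tested.

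**Figure D4:**
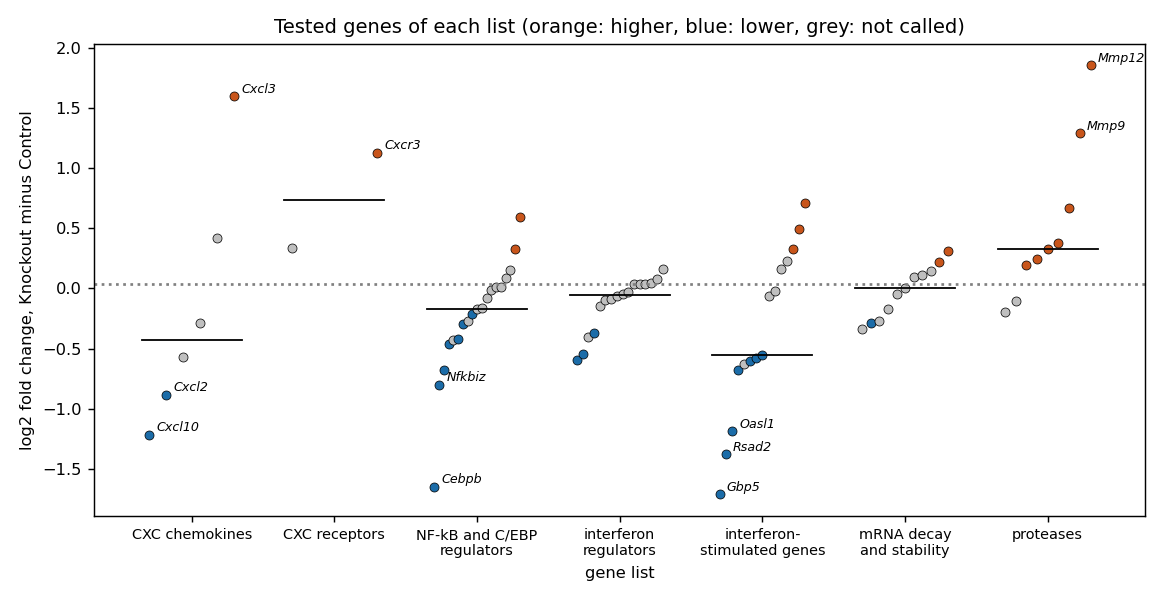
log2 fold change of Knockout against Control for the tested genes of each list (points; orange higher, blue lower, grey not called), with a bar at each list's median and a dotted line at the median of all tested rows (0.04). Medians run from -0.56 in the interferon-stimulated genes to 0.33 in the proteases and 0.74 over the 2 tested receptors, and Cxcl3, Cxcr3 and Mmp12 stand at the top of their lists.

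Rows most like a member were found by the distance between log2(TPM + 1) values centred over the 6 libraries, which mostly reflects the group difference. Nearest to Cxcl2 were Ms4a6d (distance 0.11), Cd200r4, Kctd6, Cyfip2 and Tmem74, with log2 fold changes of -0.91 to -0.81. Nearest to Cxcl10 was Oasl1, an interferon-stimulated gene (distance 0.15), at 1245 TPM in Control and 551 TPM in Knockout. The next, Hid1, was at a distance of 0.28, followed by Ccbe1, Gprc5a and Rhov. Nearest to Cxcl16 were Clba1 (distance 0.04), Tgif1, Ccnl2, Rasgef1b and Zbtb4, and nearest to Pf4 were Ankrd34a (distance 0.19), Gm28437, Gm6685, Ppfia4 and Dusp28.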

How the data were processed

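Bulk RNA sequencing of 6 libraries was analysed from 1 deposited table, in which the authors gave TPM values per gene symbol. The unit was read from the values, which sum to 991721 to 998572 per library, since the header names none. The submitters' processing notes list GRCm39 and DESeq2, with no role given. Aligner, counter and annotation are not given in the sources used here. Reads were recovered with union exon lengths of GENCODE M21 (GRCm38, also the source of gene positions): 95.9% of rows were whole in all libraries within 0.02 read, 681 more at another length (within 0.003 read) and 28 at none. Of values of 1 to 12 reads 71.0% were even, so counting errors may exceed those of independent reads. All columns were mapped to samples.

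Rows whose mean reached 1 TPM were compared with limma 3.58.1 in R 4.3.3 (eBayes, trend, robust) on log2(TPM + 1), which understates changes of low genes. Adjustment (Benjamini-Hochberg, two-sided p, threshold 0.05) ran over 13034 rows, and the script was tested on simulated data. Ratios within a library were compared by exact permutation in scipy 1.17.1. Intervals are at 95%. Alternatives were a pseudocount of 0.1, no filter or a mean of 5 TPM, 2 scalings, a replicate block, limma without robust settings, limma-voom on recovered reads and libraries left out. Members and gene lists were chosen with earlier results of these data known. A gene of the interferon list is not reported here and is left out of its counts. Named genes are all members, up to 2 rises and 2 falls per list, stated regulators and, for Cxcl2, Cxcl10, Cxcl16 and Pf4, the 5 nearest rows. The planned ratio of Cxcl10 over Cxcl9 had no values for Cxcl9, and Cxcl3 over Cxcl2 was added after the data were seen, as was the run length of 40 bases for shared sequence. Promoter windows are from RefSeq (GRCm38.p6).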

Additional observations from a re-analysis of the deposited data

How the results depend on the processing

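Cxcl2, Cxcl3 and Cxcl10 kept their direction and call in all 16 alternatives run, at -0.96 to -0.74, 1.47 to 1.89 and -1.32 to -0.88 on the log2 scale, with limma adjusted p up to 0.0195, 0.0218 and 0.0218. Pf4 was called in 0 of 15, at 0.22 to 0.76 (limma adjusted p = 0.171 to 0.464). Cxcl11 became called with limma-voom (-1.14), the other alternatives keeping it uncalled; Cxcl11 and Pf4 have no value at a filter of 5 TPM. Cxcl16 became called with limma-voom (-0.34) and a replicate block (-0.29, limma adjusted p = 0.0354), and with 1 library left out it ranged from -0.37 to -0.18, and without both Control replicate 1 and Knockout replicate 3 it was -0.12. With a pseudocount of 0.1 the untested differences of Cxcl1 and Cxcl14 were 0.29 and -0.61, against 0.04 and -0.15. Without Control replicate 1 and Knockout replicate 3, chosen after seeing the data as were the rows removed for not being whole reads, Cxcl14 was at -0.42 (-0.32 to -0.031 with 1 library left out), and 2339 rows were higher and 1356 lower. Irf1 ranged from -0.066 to 0.033 with 1 library left out, turning only without Control replicate 1, and was at 0.054 without both libraries. Leaving out 1 library gave 1313 to 2096 rows higher and 669 to 1219 lower, with fewer samples tested. Limma-voom gave 1995 higher and 2042 lower, and upper-quartile scaling 1731 and 1864; the cause was not tested. Deviations of same-numbered libraries correlated at 0.13, -0.08 and 0.03 across rows, and those of differently numbered libraries at -0.17 to 0.17. With 3 libraries per group these values cannot decide whether the numbers pair the samples. A replicate block gave 2331 rows higher and 1380 lower. Members under 30 reads in every library (Cxcl1, Cxcl14 and Pf4) are limited by depth, as is Cxcl11 in Knockout replicate 3 (26 reads).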
